A study of Mus musculus with 4 samples.

Results

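Tropomyosins, calponins and transgelins are 3 small gene families whose proteins lie along actin filaments. All 9 genes of the families that were picked by symbol were present in the deposited table, out of 23847 rows: the tropomyosin genes Tpm1, Tpm2, Tpm3 and Tpm4, the calponin genes Cnn1, Cnn2 and Cnn3, and the transgelin genes Tagln and Tagln2. They were selected from this table with their levels in both groups known, so their differences between groups are given as a description, and limma's calls on them only as counts beside the share of all genes. The libraries came from ventricle tissue taken at postnatal day 21 from male mice on a C57BL/6 background. In 2 samples Cdk8, the kinase of the Mediator complex, was overexpressed specifically in the heart (Cdk8Tg), and the other 2 were wild-type hearts (WT). The Cdk8 transcript stood at 7309 and 8122 FPKM in Cdk8Tg against 7.89 and 9.86 FPKM in WT, in the direction of the labels. The sources used here do not give the promoter that drives Cdk8, the number of transgenic lines or whether each library is 1 animal. Levels are in FPKM, a unit that divides fragments by transcript length as well as by library size, so genes can be set beside each other.

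Tropomyosins form coiled-coil dimers that polymerize head to tail in the groove of the actin filament. In striated muscle they carry the troponin complex and shift with calcium, which opens or covers the myosin binding sites, and in other cells they decide which proteins may reach a filament. Calponins bind actin and slow the actin-activated ATPase of myosin in smooth muscle, which has no troponin, and transgelins are short relatives that share the calponin homology domain. In adult rodent ventricle Tpm1 supplies nearly all tropomyosin, beta-tropomyosin from Tpm2 belongs to fetal heart, skeletal and smooth muscle, and Cnn1 and Tagln are standard markers of differentiated smooth muscle.

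Of the 9 genes, 4 were higher in both Cdk8Tg libraries than in both WT libraries (Cnn1, Tpm2, Cnn2 and Cnn3), 1 was lower in both (Tpm1) and 4 overlapped (Tagln, Tagln2, Tpm3 and Tpm4). Groups failed to overlap for 70.3% of all tested genes, with 49.2% higher in Cdk8Tg and 21.1% lower. The same 4 genes passed limma's Benjamini-Hochberg threshold as higher, where 16.9% of all tested genes did. Tpm1 passed as lower, where 7.98% did. With no filter Tpm1, Cnn2 and Cnn3 did not pass. After median-of-ratios scaling Cnn2 and Cnn3 did not pass, nor did Cnn2 after quantile normalization. Without either WT library Tpm1, Cnn2 and Cnn3 did not pass. Of the 9, 3 (Tpm2, Cnn1 and Cnn3) had a q-value under 0.05 in the authors' deposited table, as did 14.0% of the genes tested there. Nothing is read from these counts, because the genes were picked with this contrast in view. All 9 genes had a mean above the filter of 1 FPKM. On the log2(FPKM + 1) scale their median difference, Cdk8Tg minus WT, was 0.65, and that of all 11888 genes tested was 0.13.

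**Figure D1:**
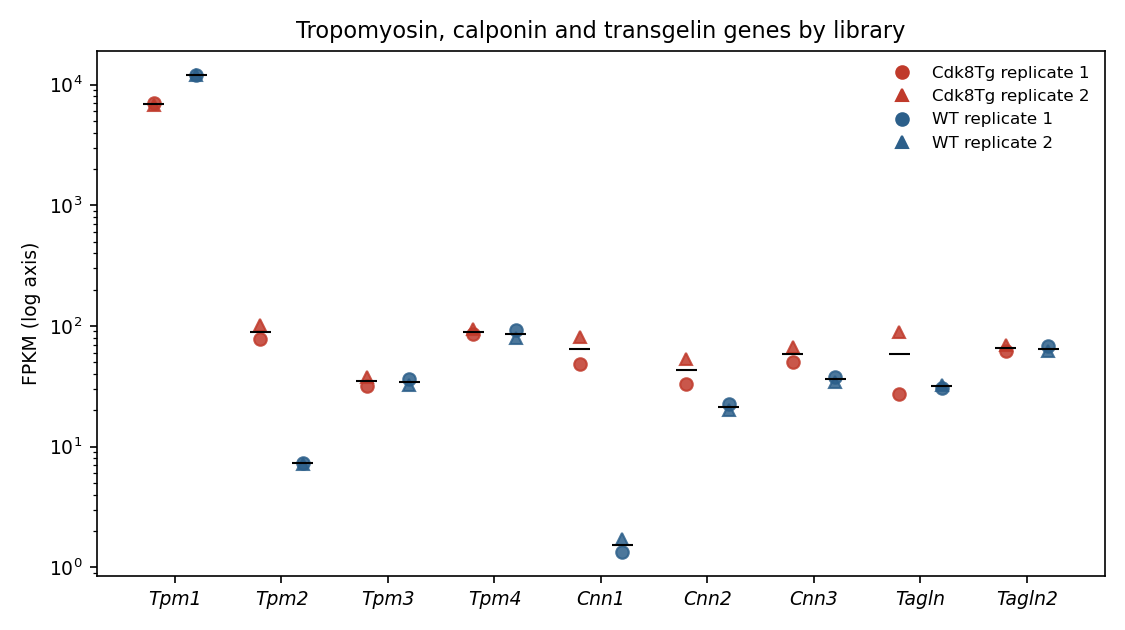
FPKM of the 9 genes in each library on a log axis, with Cdk8Tg left of WT for each gene and a line at each group's mean of 2 libraries. Cnn1 and Tpm2 stand far above WT in both Cdk8Tg libraries, Tpm1 stands below, and a single Cdk8Tg library carries the difference of Tagln.

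The promoters of 4 genes are shown because Cnn1 and Tpm2 had the largest positive differences of the 9, Tpm1 the largest negative one, and Cnn2 alone held a match to the CArG box. Promoters of RefSeq on GRCm38.p6, from 250 bases before to 50 bases after the start, were matched for 8 of the 9 genes, all but Tagln. Lower case marks the sequence on the gene's own strand and capitals mark a match, on either strand, to the CArG box, which serum response factor binds, or to the MCAT element CATTCC, which TEAD factors bind.
Cnn1, chr9:22099003-22099302, + strand: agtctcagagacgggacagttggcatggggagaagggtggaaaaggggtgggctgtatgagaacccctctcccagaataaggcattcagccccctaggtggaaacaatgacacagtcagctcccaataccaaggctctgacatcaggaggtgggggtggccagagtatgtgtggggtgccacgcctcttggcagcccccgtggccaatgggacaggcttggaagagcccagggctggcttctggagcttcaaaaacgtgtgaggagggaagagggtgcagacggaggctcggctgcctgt
Tpm2, chr4:43523505-43523804, - strand: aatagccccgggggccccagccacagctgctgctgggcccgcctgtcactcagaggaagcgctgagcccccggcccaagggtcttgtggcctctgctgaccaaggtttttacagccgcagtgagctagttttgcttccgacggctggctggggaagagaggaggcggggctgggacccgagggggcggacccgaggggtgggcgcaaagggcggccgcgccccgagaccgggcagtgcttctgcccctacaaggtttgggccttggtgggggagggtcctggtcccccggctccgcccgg
Cnn2, chr10:79988350-79988649, + strand: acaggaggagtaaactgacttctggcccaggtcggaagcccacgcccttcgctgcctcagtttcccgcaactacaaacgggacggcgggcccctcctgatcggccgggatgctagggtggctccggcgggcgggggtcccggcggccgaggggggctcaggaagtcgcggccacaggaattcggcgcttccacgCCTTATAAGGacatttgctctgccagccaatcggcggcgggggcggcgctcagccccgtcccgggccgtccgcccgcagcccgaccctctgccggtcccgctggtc
Tpm1, chr9:67049164-67049463, - strand: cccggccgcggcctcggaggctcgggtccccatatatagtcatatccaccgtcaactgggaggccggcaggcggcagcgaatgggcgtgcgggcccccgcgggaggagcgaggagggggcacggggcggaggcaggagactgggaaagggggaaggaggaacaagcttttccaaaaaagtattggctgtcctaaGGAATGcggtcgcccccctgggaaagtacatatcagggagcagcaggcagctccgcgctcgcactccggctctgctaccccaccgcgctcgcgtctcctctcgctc
The capitals in Cnn2 mark the CArG match CCTTATAAGG, which reads the same on both strands and begins 56 bases before the start. In Tpm1 they mark GGAATG, an MCAT element on the opposite strand that also begins 56 bases before the start. Tagln2 held 2 MCAT elements, 118 and 80 bases before its start. No letters of either motif were found in the windows of Cnn1, Tpm2, Tpm3, Tpm4 and Cnn3. Of all 32851 promoters of this length in the table, 1.63% held a CArG box and 14.7% an MCAT element. The windows differed in base composition, with 6 CpG dinucleotides in Cnn1, 20 in Tpm2, 33 in Cnn2 and 27 in Tpm1, where the median over all promoters was 7.

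Tpm1 encodes alpha-tropomyosin, the main cardiac form. Its level was 7005 and 6778 FPKM in Cdk8Tg, against 12046 and 12102 FPKM in WT. Both Cdk8Tg values lay well below both WT values, and the libraries of each group differed little. The means were 6892 ± 161 FPKM in Cdk8Tg and 12074 ± 40.0 FPKM in WT (SD over n = 2 each), a ratio of 0.571 and a difference of -0.81 ± 0.13 on the log2(FPKM + 1) scale (SE). By mean FPKM over the 4 libraries Tpm1 ranked 3 among all rows. All 4 tropomyosin genes together held 1.61% and 1.59% of all FPKM in Cdk8Tg, against 2.38% and 2.40% in WT. The difference of Tpm1 was -0.96 after median-of-ratios scaling and -0.54 after quantile normalization. In the authors' deposited table Tpm1 was at 7766 FPKM in Cdk8Tg and 15162 FPKM in WT.

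Most markers of cardiomyocytes were lower together with Tpm1. Of the 8 listed, 5 fell and 0 rose by limma's Benjamini-Hochberg threshold, where 7.98% of all tested genes fell. That count was 1 with no filter and without either WT library and 2 with the replicate number as a block, and after quantile normalization 2 fell and 2 rose. Mybpc3, cardiac myosin-binding protein C, stood the other way, at 1351 and 1290 FPKM in Cdk8Tg against 1125 and 1104 FPKM in WT, with no call. The summed level of the 8 markers was 37840 and 36426 FPKM in Cdk8Tg against 55853 and 53513 FPKM in WT. In bulk tissue, fewer cells of a type and less RNA per cell cannot be told apart, and the part of either in the level of Tpm1 was not tested. Set against other sarcomere genes within a library, Tpm1 was at 0.747 and 0.750 times cardiac actin Actc1 in Cdk8Tg and at 1.09 and 1.21 times in WT. Against cardiac troponin T, Tnnt2, the ratio was 1.32 and 1.40 in Cdk8Tg and 1.58 and 1.59 in WT. Against the ventricular light chain gene Myl2 it was 0.651 and 0.596 in Cdk8Tg and 0.759 and 0.775 in WT. In each of these ratios, which do not depend on scaling between libraries, both Cdk8Tg libraries lay below both WT libraries. The other listed markers were not set beside Tpm1 in this way, and not all fell by less than Tpm1. On the log2 scale Tnni3 fell by more than Tpm1 (-1.75 against -0.81) and Ryr2 by about as much (-0.81). Myh6 and Myl3 fell by less (-0.59 and -0.66).

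Tpm2 encodes beta-tropomyosin. It stood at 78.3 and 101 FPKM in Cdk8Tg against 7.30 and 7.18 FPKM in WT. The groups lay far apart, with Cdk8Tg replicate 2 the higher of its pair. The means were 89.7 ± 16.1 FPKM in Cdk8Tg and 7.24 ± 0.0872 FPKM in WT (SD over n = 2 each), a ratio of 12.4 and a difference of 3.45 ± 0.13 on the log2(FPKM + 1) scale (SE). Of the 31-base stretches of Tpm2 transcripts, 0.299% also occur in Tpm1. In the authors' deposited table Tpm2 was at 102 FPKM in Cdk8Tg and 9.10 FPKM in WT.

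Tpm3, which makes the slow-muscle form and several forms of the cytoskeleton, and Tpm4, which in mouse makes a cytoskeletal form, gave levels that overlapped between the groups. Tpm3 was at 31.9 and 37.9 FPKM in Cdk8Tg against 36.4 and 32.2 FPKM in WT. Tpm4 was at 84.9 and 94.4 FPKM in Cdk8Tg against 91.8 and 80.1 FPKM in WT. Their log2 differences of 0.02 ± 0.12 and 0.06 ± 0.11 (SE) were smaller than these errors, and they were -0.12 and -0.09 after median-of-ratios scaling. The Tpm3 to Tpm4 ratio hardly varied, at 0.376 and 0.402 in Cdk8Tg and 0.396 and 0.402 in WT. Of the 31-base stretches of Tpm3, 26.9% occur in Tpm3-rs7, and of those of Tpm4, 16.0% occur in Gm7809, so these levels may include or miss reads of such copies.

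The make-up of the tropomyosin pool differed between the groups. Tpm1 made up 97.3% and 96.7% of tropomyosin FPKM in Cdk8Tg and 98.9% and 99.0% in WT. Tpm2 made up 1.09% and 1.44% in Cdk8Tg, against 0.0599% and 0.0587% in WT. The ratio of Tpm1 to Tpm2 was 89.5 and 67.0 in Cdk8Tg, against 1650 and 1686 in WT. Tpm1 was the dominant gene of the family in every library. Among the 3 minor genes taken alone, Tpm2 held 41.7 ± 2.26% in Cdk8Tg and 5.70 ± 0.439% in WT (SD over n = 2 each), and Tpm4 held 42.0 ± 2.20% in Cdk8Tg and 67.4 ± 0.509% in WT. The FPKM per group of the authors' deposited table gave 41.9% in Cdk8Tg and 5.63% in WT for Tpm2.

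**Figure D2:**
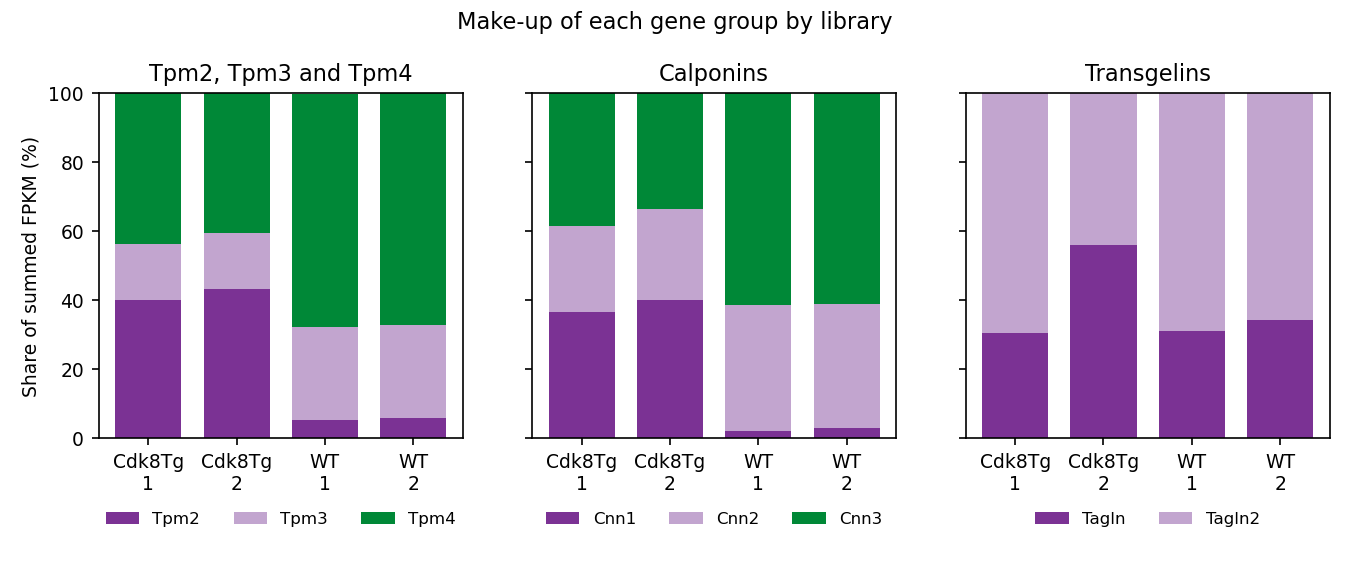
Share of each gene in the summed FPKM of its group in each library, in percent, for Tpm2 to Tpm4 (left), the calponins (middle) and the transgelins (right). Tpm2 holds 40.1% and 43.3% of its bar in Cdk8Tg against 5.39% and 6.01% in WT, Cnn1 holds 36.6% and 40.1% in Cdk8Tg against 2.16% and 3.02% in WT, and Tagln exceeds the other libraries only in Cdk8Tg replicate 2.

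Most tropomyosin genes make several proteins through alternative promoters and exons, which a level per gene merges. GENCODE M21 lists 16 coding transcripts for Tpm1. Of these, 7 have 284 codons, the length of the longest Tpm2 form. Another 3 have 247 or 248 codons, the length of the short cytoskeletal forms. For Tpm2 GENCODE M21 lists 4 coding transcripts, 3 of them with 284 codons. Tpm3 has 1 coding transcript of 284 codons and 3 of the short class, and its longest has 285 codons. The only coding transcript of Tpm4 has 248 codons. No value in the tables tells these forms apart.

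Cnn1, the basic calponin of smooth muscle, stood apart from WT by the widest margin of the 9 genes. It was at 48.1 and 80.5 FPKM in Cdk8Tg against 1.34 and 1.70 FPKM in WT. Even the lower Cdk8Tg library lay far above both WT libraries, and the Cdk8Tg libraries differed by 1.67 times. The means were 64.3 ± 22.9 FPKM in Cdk8Tg and 1.52 ± 0.253 FPKM in WT (SD over n = 2 each), a ratio of 42.3 and a difference of 4.65 ± 0.24 on the log2(FPKM + 1) scale (SE). With the pseudocount at 0.1 the difference was 5.28 and at 5 it was 3.37, because the WT level is low. The WT levels rested on an estimated 21.5 and 27.2 fragments, against 675 and 1092 in Cdk8Tg. No 31-base stretch of Cnn1 occurs in another annotated gene. The authors' deposited table gave 72.9 FPKM in Cdk8Tg and 1.93 FPKM in WT.

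Cnn1 lies on chromosome 9 at 22099216 to 22109630 of GRCm38. In the authors' deposited table its row carries a locus from 22055459 to 22389206, a span of 334 kb that 15 rows share, whereas the median span over all rows was 18.9 kb. Among the other rows of that locus, 8 were tested there and 0 passed, with log2 ratios of the authors' FPKM between -0.73 and 0.81. Cnn2 shared its locus of 672 kb on chromosome 10 with 46 rows in all, and Tagln its locus of 72.4 kb on chromosome 9 with 3. The other 6 genes had a locus to themselves.

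Cnn2, a calponin of smooth muscle and many motile cells, was at 33.1 and 53.2 FPKM in Cdk8Tg against 22.5 and 20.3 FPKM in WT. Cnn3, the acidic calponin of brain and other tissues, was at 50.4 and 67.0 FPKM in Cdk8Tg against 38.0 and 34.2 FPKM in WT. For both genes the groups did not overlap and Cdk8Tg replicate 2 was the highest library. The means of Cnn2 were 43.1 ± 14.2 FPKM in Cdk8Tg and 21.4 ± 1.61 FPKM in WT, and those of Cnn3 were 58.7 ± 11.8 FPKM in Cdk8Tg and 36.1 ± 2.72 FPKM in WT (SD over n = 2 each). The log2 differences were 0.94 ± 0.22 and 0.68 ± 0.15 (SE). After median-of-ratios scaling they were 0.80 and 0.53. Without Cdk8Tg replicate 2 they were 0.61 and 0.47, and without Cdk8Tg replicate 1 they were 1.28 and 0.88. The authors' deposited table gave 48.9 FPKM in Cdk8Tg and 27.1 FPKM in WT for Cnn2, and 66.5 FPKM in Cdk8Tg and 45.8 FPKM in WT for Cnn3. Other annotated genes share 32.0% of the 31-base stretches of Cnn3, so its level may include or miss their reads.

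The make-up of the calponins differed too. Cnn1 made up 38.3 ± 2.51% of calponin FPKM in Cdk8Tg and 2.59 ± 0.608% in WT, while Cnn3 made up 35.9 ± 3.48% in Cdk8Tg and 61.1 ± 0.380% in WT (SD over n = 2 each). Cnn2 supplied 25.8 ± 0.966% in Cdk8Tg and 36.3 ± 0.228% in WT. The order of levels was Cnn3, Cnn2, Cnn1 in both WT libraries, whereas Cnn3 led Cdk8Tg replicate 1 by 50.4 to 48.1 FPKM over Cnn1 and Cnn1 led Cdk8Tg replicate 2. The summed level of the 3 genes was 132 and 201 FPKM in Cdk8Tg and 61.9 and 56.1 FPKM in WT.

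Fibroblast genes were higher together with Cnn2 and Cnn3, where 16.9% of all tested genes rose by limma's Benjamini-Hochberg threshold. Of the 9 fibroblast markers listed, 6 rose and 0 fell by limma, against at most 2 rises with no filter, without Cdk8Tg replicate 2 and without either WT library. Their sum was 1189 and 1543 FPKM in Cdk8Tg against 989 and 898 FPKM in WT. Of these markers, all 9 were higher in Cdk8Tg replicate 2 than in replicate 1. Of the 8 myofibroblast markers, 7 were tested and 3 rose, against at most 1 with no filter and without either WT library, with a sum of 443 and 716 FPKM in Cdk8Tg and 341 and 333 FPKM in WT. Postn, the matrix protein periostin, whose call was lost with no filter, with a robust variance and without either WT library, was at 71.9 and 128 FPKM in Cdk8Tg against 42.6 and 32.7 FPKM in WT. After median-of-ratios scaling 4 fibroblast and 3 myofibroblast markers rose, and on an equal FPKM sum 8 and 6 did. No marker of either list was at 0 in every library. Most of the myofibroblast sum in each library was the smooth muscle actin gene Acta2. As deposited it was not called, and it is also listed as a vascular smooth muscle marker. The part of these cells in the calponin differences was not tested.

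Tagln encodes SM22-alpha, an actin-binding protein of smooth muscle. It was at 27.4 and 89.7 FPKM in Cdk8Tg against 30.8 and 32.1 FPKM in WT. Cdk8Tg replicate 1 was the lowest of the 4 libraries and Cdk8Tg replicate 2 the highest, 3.27 times its partner, so the groups overlapped. The means were 58.6 ± 44.1 FPKM in Cdk8Tg and 31.5 ± 0.885 FPKM in WT (SD over n = 2 each). The log2 difference was 0.65 ± 0.51 (limma's moderated SE). It was smaller than the spread between replicates on that scale (pooled SD 0.84). Without Cdk8Tg replicate 1 the difference was 1.48, and without Cdk8Tg replicate 2 it was -0.19. The authors' deposited table gave 66.1 FPKM in Cdk8Tg and 40.0 FPKM in WT. Exons of Tagln share 1241 bases with Gm48529 and 108 bases with Pcsk7, both on the opposite strand. Of the 31-base stretches of Tagln, 62.2% also occur in these genes. The libraries were stranded, but the sources used here do not give the strand setting of the counting. The level of Tagln may thus include or miss reads of these genes. Pcsk7 stood at 9.04 and 9.30 FPKM in Cdk8Tg against 7.75 and 7.29 FPKM in WT, and its Cdk8Tg libraries differed little.

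Tagln2, the transgelin of leukocytes and many other cells, was at 62.2 and 69.9 FPKM in Cdk8Tg against 68.2 and 61.6 FPKM in WT. These levels overlapped, with a log2 difference of 0.02 ± 0.10 (SE) that turned to -0.12 after median-of-ratios scaling. Tagln2 made up 69.4% and 43.8% of transgelin FPKM in Cdk8Tg and 68.9% and 65.7% in WT, and was thus the lesser of the pair in Cdk8Tg replicate 2 alone. Of the 7 leukocyte markers in the table, 5 were tested, 0 rose and 1 fell, and their sum was 81.5 and 101 FPKM in Cdk8Tg and 123 and 112 FPKM in WT.

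Within Cdk8Tg, 8 of the 9 genes were higher in replicate 2 than in replicate 1, the exception being Tpm1. Over all tested genes 54.8% were higher in replicate 2. The log2 difference between the pair was 1.68 for Tagln, 0.73 for Cnn1, 0.67 for Cnn2, 0.40 for Cnn3 and 0.37 for Tpm2, where the median of all tested genes was 0.02. Tagln thus lay above 99.7% of tested genes in this spread, and Cnn1 and Cnn2 above 98.5% and 98.2%. Between the WT libraries 3 of the 9 genes were higher in replicate 2, by at most 1.27 times, for Cnn1.

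**Figure D3:**
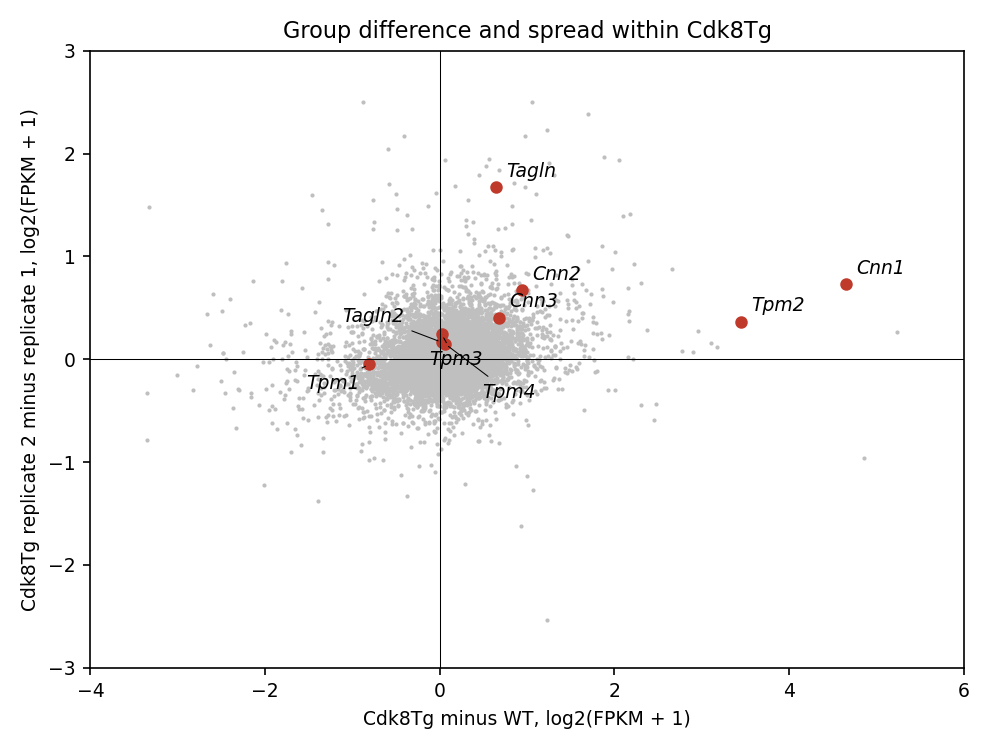
Each grey point is a tested gene, with its difference Cdk8Tg minus WT on the x axis and Cdk8Tg replicate 2 minus replicate 1 on the y axis, both on the log2(FPKM + 1) scale, and the 9 genes are in red; 26 of 11888 genes lie outside the axes. Cnn1 and Tpm2 are displaced along the x axis, and Tagln mainly along the y axis.

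The smooth muscle myosin heavy chain Myh11, a defining marker of the cell type, was at 10.3 and 25.5 FPKM in Cdk8Tg against 11.8 and 13.9 FPKM in WT. Smooth muscle alpha-actin Acta2 was at 317 and 513 FPKM in Cdk8Tg against 266 and 268 FPKM in WT. Both were highest in Cdk8Tg replicate 2, as Tagln was, and neither passed limma's Benjamini-Hochberg threshold (adjusted p = 0.55 for Myh11 and 0.11 for Acta2), though both passed without Cdk8Tg replicate 1 and Acta2 also on an equal FPKM sum. Of the 10 vascular smooth muscle markers listed, 9 were tested, 0 rose and 2 fell (Ramp1 and Smtn), and none was at 0 in every library. Without Cdk8Tg replicate 1, 4 rose and 2 fell. Their sum was 382 and 603 FPKM in Cdk8Tg and 353 and 354 FPKM in WT. Most of the sum in each library was Acta2, so it does not stand for the markers as a set. Of the 10 markers, 8 were higher in Cdk8Tg replicate 2 than in replicate 1. The ratio of Tagln to Myh11 was 2.65 and 3.52 in Cdk8Tg and 2.61 and 2.31 in WT. That of Tagln to Acta2 was 0.0866 and 0.175 in Cdk8Tg and 0.116 and 0.120 in WT, on both sides of WT.

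The ratio of Cnn1 to Myh11 was 4.65 and 3.16 in Cdk8Tg against 0.113 and 0.122 in WT, and its ratio to Tagln was 1.75 and 0.897 in Cdk8Tg and 0.0435 and 0.0529 in WT. The ratio to Acta2 was 0.152 and 0.157 in Cdk8Tg and 0.00505 and 0.00633 in WT. In Cdk8Tg replicate 1 Cnn1 was at 48.1 FPKM. In that library Tagln and Myh11 lay below both WT libraries, while Acta2 and Itga8 lay above both. Tpm2 likewise stood at 2.86 and 1.13 times Tagln in Cdk8Tg, against 0.237 and 0.224 times in WT. The cells in which these transcripts lie were not measured.

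**Figure D4:**
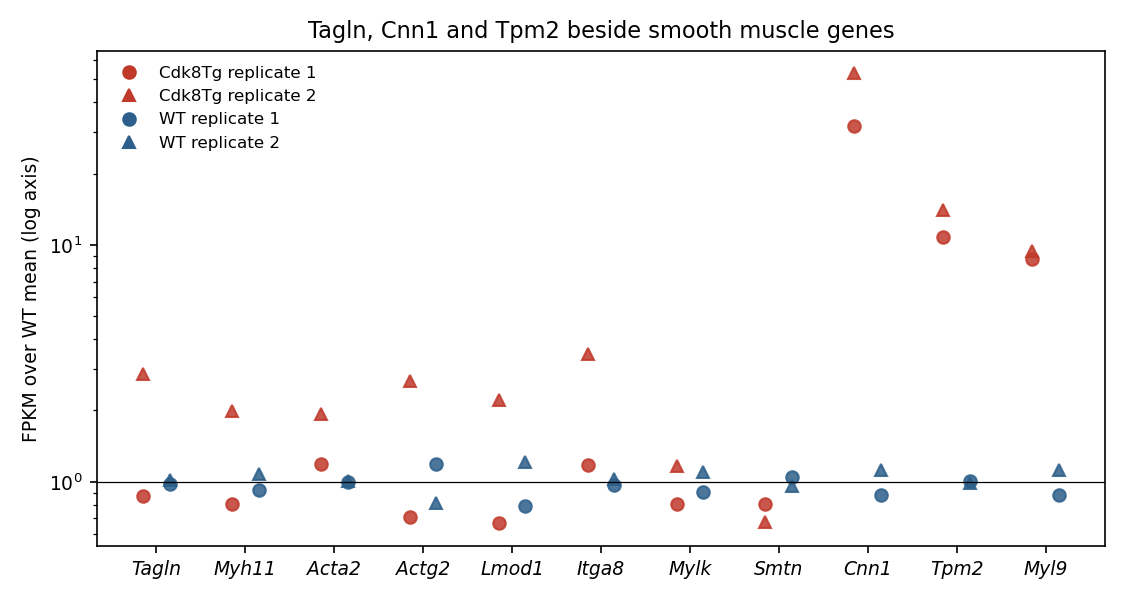
FPKM of each library divided by the gene's WT mean, on a log axis, with Cdk8Tg left of WT, for Tagln and 7 smooth muscle genes and then Cnn1, Tpm2 and Myl9. Cnn1, Tpm2 and Myl9 lie well above 1 in both Cdk8Tg libraries, while Tagln, Myh11, Actg2 and Lmod1 do so in Cdk8Tg replicate 2 alone.

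Markers of other cell types that ventricle tissue could hold were also summed. Pericyte markers summed to 265 and 257 FPKM in Cdk8Tg and 279 and 279 FPKM in WT, with 1 of 8 falling, and endothelial markers to 322 and 302 FPKM in Cdk8Tg and 342 and 343 FPKM in WT, with 0 of 8 called. Of 12 skeletal muscle markers, 11 were under 1 FPKM in every library, and Myod1, Myf5 and Pax7 were listed at 0 throughout. Their sum was 6.05 and 11.9 FPKM in Cdk8Tg and 8.13 and 7.12 FPKM in WT, and the 1 marker tested was not called. Platelet markers, of which 3 of 5 were under 1 FPKM everywhere, summed to 21.5 and 19.1 FPKM in Cdk8Tg and 30.9 and 37.6 FPKM in WT, with 1 of the 2 tested falling. Atrial markers differed widely between libraries of the same group, with a sum of 915 and 2513 FPKM in Cdk8Tg and 720 and 267 FPKM in WT. Most of the sum was Nppa, which was also the 1 of 5 that rose. Myl7 and Sln were highest in WT replicate 1, and Myl4 and Myl1 in Cdk8Tg replicate 2. The part of these cell types in the differences of the 9 genes was not tested.

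The genes whose 4 values lay closest to those of Cnn1, by Euclidean distance between centred log2(FPKM + 1) profiles, were Ppp2r2b (0.70), the small nucleolar RNA Snord22 (1.22) and Myl9 (1.54). Closest to Tpm2 were Acta1 (0.41), Myl9 (0.42) and Sypl2 (0.50). Myl9, whose product regulates smooth muscle and nonmuscle myosin, is thus on both lists, at 777 and 842 FPKM in Cdk8Tg against 78.2 and 100 FPKM in WT. Skeletal alpha-actin Acta1 was at 1327 and 1479 FPKM in Cdk8Tg against 150 and 174 FPKM in WT. Closest to Tagln were Cyp2e1 (0.17), Nov (0.19) and Npnt (0.22), each highest in Cdk8Tg replicate 2. All these distances rest on 4 libraries.

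The partners of tropomyosin at the filament were taken from lists of genes, beside which 16.9% of all tested genes rose and 7.98% fell. Of 7 tropomodulins and leiomodins, which cap or elongate the pointed end, 0 rose and 2 fell by limma's Benjamini-Hochberg threshold, with a median log2 difference of 0.10, where the median of all tested genes was 0.13. Tmod4, the tropomodulin of skeletal muscle, fell to 1.13 and 0.727 FPKM in Cdk8Tg, against 9.60 and 7.36 FPKM in WT (log2 difference -2.30 ± 0.17 SE, adjusted p = 0.0035). Lmod2, the cardiac leiomodin, fell to 217 and 251 FPKM in Cdk8Tg, against 321 and 391 FPKM in WT (adjusted p = 0.030), a call lost after quantile normalization, on an equal FPKM sum, with no filter, and without Cdk8Tg replicate 1 or either WT library. Tmod1, the cardiac pointed-end cap, was at 114 and 99.6 FPKM in Cdk8Tg against 123 and 114 FPKM in WT, with no call. Of 6 troponin genes tested, 2 rose (Tnni1 and Tnnt1, the slow forms) and 3 fell (Tnni2, Tnni3 and Tnnt2), with a median of -0.38. Tnni1, the slow skeletal inhibitory subunit that precedes Tnni3 in heart development, stood at 255 and 226 FPKM in Cdk8Tg against 1.51 and 0.789 FPKM in WT. Tnni3, the cardiac subunit, stood at 2016 and 1890 FPKM in Cdk8Tg against 6610 and 6487 FPKM in WT. Both differences passed limma's Benjamini-Hochberg threshold (adjusted p = 2.4e-04 for Tnni1 and 0.0029 for Tnni3), while the call of Tnnt2 (adjusted p = 0.029) was lost with no filter, with the replicate number as a block and without either WT library. The sum over the troponin list was 11093 and 10277 FPKM in Cdk8Tg and 18050 and 17813 FPKM in WT. Of the 6 actin genes, Acta1 alone was called, as a rise.

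Of 21 smooth muscle contractile genes tested apart from Cnn1 and Tagln, 6 rose and 3 fell, with a median log2 difference of 0.27. Myl9 rose by 3.18 ± 0.14 (SE; limma, Benjamini-Hochberg adjusted p = 9.6e-04) and the essential light chain Myl6 by 0.88 ± 0.11. The other rises were Csrp1, Cald1, Pdlim7 and Ppp1r14a. Cald1 encodes caldesmon, an actin-binding inhibitor of smooth muscle myosin, and stood at 22.6 and 28.1 FPKM in Cdk8Tg against 16.4 and 16.3 FPKM in WT. The falls included the small heat shock protein gene Hspb6 at -0.60 and Smtn, smoothelin, at -0.43. The call of Myl9 held under every alternative, while those of Myl6, Csrp1, Cald1, Pdlim7, Ppp1r14a, Hspb6 and Smtn were lost without either WT library. Hspb6 and Smtn also lost their calls after quantile normalization and on an equal FPKM sum, and Smtn with no variance trend. Csrp1, Cald1, Ppp1r14a, Hspb6 and Smtn lost theirs with no filter. Without Cdk8Tg replicate 2 the log2 difference of Cald1 was 0.44 (0.59 with all libraries) and that of Smtn was -0.30. After median-of-ratios scaling 6 rose and 4 fell. The counts were 10 rises and 2 falls without Cdk8Tg replicate 1, 4 and 1 without Cdk8Tg replicate 2, 3 and 1 with no filter, and 1 and 1 without either WT library.

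Of 36 genes listed for nonmuscle actin filaments, 13 rose and 1 fell, with a median of 0.23. The list also took in the muscle filamin Flnc, which rose, the vimentin gene Vim, and Csrp1, counted also among the smooth muscle genes. Its counts are thus not of nonmuscle actin genes alone. The rises included Actn1, the nonmuscle alpha-actinin, by 1.32 ± 0.18 (SE; limma, Benjamini-Hochberg adjusted p = 0.011), the actin-monomer binder Pfn1 by 0.86 and the nonmuscle myosin Myh10 by 0.92. The fall was Fhl2, a LIM protein abundant in heart, at -1.26. Each of these 4 calls was lost without WT replicate 2, and those of Actn1, Myh10 and Fhl2 also without WT replicate 1 and with no filter. Cytoplasmic actins Actb and Actg1 were not called, with adjusted p of 0.80 and 0.86. After median-of-ratios scaling 8 rose and 1 fell, and on an equal FPKM sum 19 rose and 1 fell. At most 4 rose with no filter, without Cdk8Tg replicate 2 and without either WT library.

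Actin signals to many of these genes through serum response factor and its MRTF and myocardin cofactors. Serum response factor, Srf, was at 26.9 and 32.7 FPKM in Cdk8Tg against 23.4 and 24.5 FPKM in WT, with no call by limma (Benjamini-Hochberg adjusted p = 0.11), though it was called on an equal FPKM sum and without Cdk8Tg replicate 1. Of 27 genes tested from a list for the SRF and MRTF pathway, 6 rose and 0 fell. After median-of-ratios scaling 2 rose, and on an equal FPKM sum 11 did. The list also took in NFAT, MEF2 and TEAD factors, Yap1, Wwtr1 and Klf4. Its counts are thus not of SRF and MRTF regulators alone. At most 3 rose with no filter, without Cdk8Tg replicate 2 and without either WT library. The median was 0.10. Rhoc, a small GTPase, stood at 138 and 170 FPKM in Cdk8Tg against 70.0 and 61.1 FPKM in WT (log2 difference 1.21 ± 0.13 SE, adjusted p = 0.0066), a call lost without WT replicate 2. Mical2, a monooxygenase that oxidizes actin, rose by 0.61, the calcineurin-regulated factor Nfatc2 by 0.58 and the TEAD coactivator Yap1 by 0.37. All 3 calls were lost without either WT library, and those of Nfatc2 and Yap1 also with no filter, after median-of-ratios scaling and after quantile normalization. That of Nfatc2 was lost also without Cdk8Tg replicate 1 and that of Yap1 without Cdk8Tg replicate 2. The rise of Myocd, the SRF cofactor myocardin, by 0.38, was lost under these 3 alternatives as well, and when any 1 of the 4 libraries was left out.

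The scaling between libraries bears on small differences. Of 11888 genes tested by limma with Benjamini-Hochberg adjustment, 2958 were called (24.9%), 2009 higher and 949 lower, and the split depended on scaling: 946 higher and 1385 lower after median-of-ratios scaling, 992 and 1039 after quantile normalization, and 4899 and 653 on an equal FPKM sum. The median difference of all tested genes was 0.13 as deposited and 0.00 after median-of-ratios scaling, so differences of that size have no fixed sign. From the spacing of the lowest FPKM values, depth was estimated as 13.4 and 13.0 M (mega) fragments in Cdk8Tg, against 15.3 and 15.3 M in WT, on the assumption that each library was scaled by its own total.

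**Figure D5:**
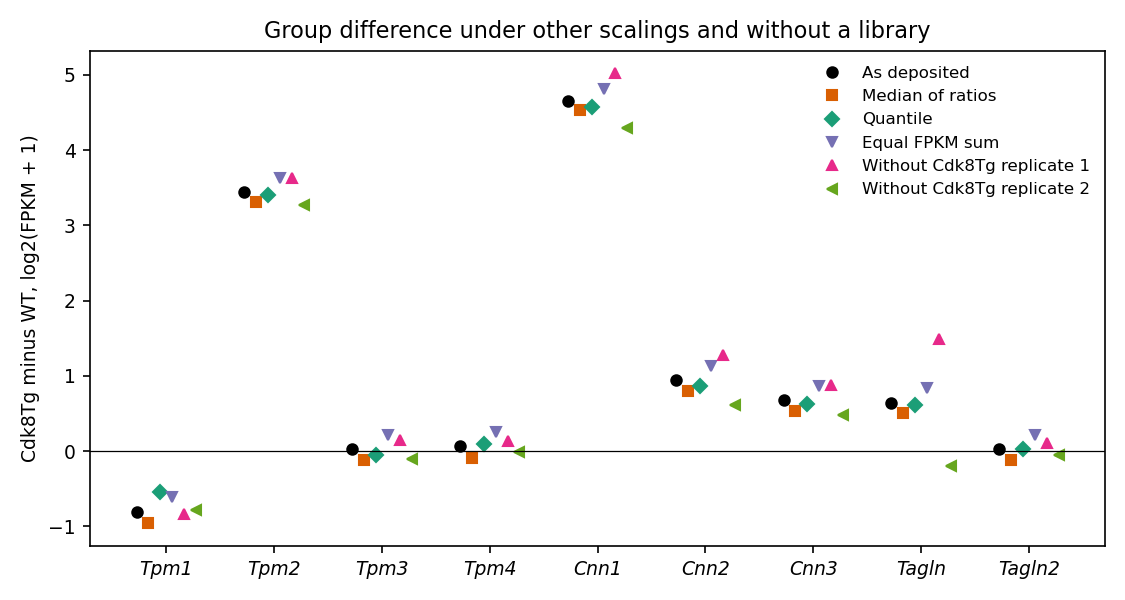
Difference Cdk8Tg minus WT of each gene on the log2(FPKM + 1) scale, as deposited, under 3 other scalings and without either Cdk8Tg library. Cnn1 and Tpm2 stay above 3 and Tpm1 below 0 in all 6 settings drawn, Tpm3, Tpm4 and Tagln2 lie on both sides of 0, and Tagln falls below 0 without Cdk8Tg replicate 2.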

How the data were processed

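Libraries were stranded, per the labels' protocols. TopHat 1.0.0, Cufflinks, Cuffdiff and the mm10 build are named, per the submitters' processing notes. The authors deposited FPKM per gene and library, and a second table of group FPKM, each gene with its p-value and q-value, per the file headers. The sources used here do not give the annotation, the strand setting or the scaling between libraries. The labels do not say that libraries are separate animals, so p-values reflect the spread among these samples alone, and that spread may be technical.

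FPKM are not counts, so differences were tested on log2(FPKM + 1) by limma 3.58.1 in R 4.3.3, with a variance trend and 2 residual degrees of freedom, over rows with a mean of at least 1 FPKM, calling Benjamini-Hochberg adjusted p under 0.05. Fold changes on this scale understate the change of low genes. Every SE is limma's moderated SE, which draws on the variance of all tested genes and not on a gene's own replicates alone. The members, lists, motifs and tests were chosen with earlier results of these data known. Besides the 9 genes, up to 4 called genes per list by smallest p were taken (all where 5 or fewer were called), and 3 nearest profiles for each of Cnn1, Tpm2 and Tagln. Other listed genes were named after their values were seen. A gene that the rule took is not reported here. Fragments behind a gene were estimated from its FPKM, the median length of its coding transcripts and the depth from FPKM steps under 0.1 in genes with 1 transcript of over 800 bases. Positions, overlaps and 31-base stretches came from GENCODE M21 (GRCm38), promoters from RefSeq (GRCm38.p6). The fit was tested on simulated data. Replicate numbers in the titles are shared between groups, but deviations of same-numbered libraries correlated at -0.026, so they were not treated as pairs.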

Additional observations from a re-analysis of the deposited data

How the results depend on the processing

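The number of genes called, 2958, and of listed thin filament and actin genes called, 36 of 96 tested (27 higher and 9 lower), changed by less than 1.5 times with no variance trend, a robust variance, quantile normalization, median-of-ratios scaling, pseudocounts of 0.1 and 5, and a filter at 5 FPKM. With no filter 1055 genes and 15 listed genes were called, and the authors' calls were 1730 and 21. On an equal FPKM sum 5552 genes were called. Leaving out a library gave 287 to 2380 genes and 8 to 35 listed genes, lowest without WT replicate 2 and 628 and 11 without WT replicate 1, 1304 and 20 without Cdk8Tg replicate 2; each such fit has 1 residual degree of freedom, and the lone sample is taken to have the spread of the other group. The cause was not tested. Listed genes split into 18 higher and 10 lower after median-of-ratios scaling and 40 and 6 on an equal FPKM sum. With the replicate number as a block, 2825 genes and 33 listed genes were called; the libraries share only a number, as the deviations show (correlation -0.026 within a number). Other scalings or pseudocounts moved 12 values of the log2 differences of the 9 genes by more than the spread between replicates. With 2 libraries a group, leaving one out cannot move a value by more than that spread, so it does not test their stability. For 33 other genes named with a test, 378 values under alternatives stayed on their side of the threshold, 77 lost the call and 5 gained it, and 0 reversed. Depth limits Cnn1 in WT the most, at an estimated 21.5 and 27.2 fragments.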
